A study of Mus musculus with 41 samples.

Results

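Trimethylation of histone H3 at lysine 27 (H3K27me3) was not called in hypertrophic chondrocytes (HC) at 628 autosomal regions where proliferating chondrocytes (PC) carried it. These are the regions of the authors' intersected PC list on chromosomes 1 to 19 that have 0 bp in common with either HC library of the mark. They are called lost regions here and make up 10.7% of the 5851 autosomal regions and 3.43% of their length, in a PC list of 6642 regions. The H3K27me3 values chose the regions and are therefore given below as a description, with no test. Chondrocytes are the cells of cartilage, and they enlarge as they turn hypertrophic in the growth plate. HC had been sorted by flow cytometry from the cartilage of mouse embryos at E15.5, carrying the transgene Tg(Col10a1-cre)1427Vdm, in which a Col10a1 promoter drives Cre, and the allele Gt(ROSA)26Sortm1(EYFP)Cos, a yellow reporter that Cre switches on. PC came from embryos at E13.5 carrying Tg(Col2a1-cre)1Star, in which a Col2a1 promoter drives Cre, and the same reporter allele. Cell type, age and strain thus differed together and cannot be told apart. Each of 6 histone marks had 2 HC and 3 PC libraries, made from few cells with a low-input immunoprecipitation kit, and the IgG samples were not analysed here. Whether the libraries of a cell type came from separate litters is not in the labels, so a p-value speaks of the spread among these libraries alone, and that spread may be technical.

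H3K27me3 is written by Polycomb repressive complex 2 and lies over silent developmental genes, mostly at CpG islands, which are stretches rich in the dinucleotide CG. H3K4me3 and H3K9ac mark active or poised promoters and H3K27ac active promoters and enhancers. The same lysine cannot carry a methyl and an acetyl group at once, so H3K27me3 and H3K27ac exclude each other on a histone tail. H3K36me3 lies along transcribed gene bodies, and Polycomb repressive complex 2 works poorly on tails that carry it. H3K9me3 marks heterochromatin.

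The files give the start and end of each region with no read count, height or score, so the depth is unknown and a region is either called or not. Regions of H3K27me3, H3K36me3 and H3K9me3 lay on a grid of 800 bp and those of H3K4me3, H3K9ac and H3K27ac on a grid of 200 bp. Values below are the percent of a region, or of a 4 kb window with 2 kb on each side of a gene start, that lay in regions of a library. In bulk chromatin, fewer cells with a mark and less of the mark per cell cannot be told apart. The autosomal length in H3K27me3 regions was 63.2 and 73.2 Mb in HC libraries, against 74.7, 57.5 and 59.2 Mb in PC libraries. Of 5 hypertrophic markers, only Runx2 had H3K4me3 within 2 kb of its start in both HC libraries, and Col10a1, Ihh, Mmp13 and Panx3 did not. Runx2 also had it in all 3 PC libraries. No hypertrophic marker had H3K27ac in both HC libraries, and Panx3 and Runx2 had it in all 3 PC libraries. The start of Col10a1, whose promoter sequence the HC strain carries as a transgene, had H3K27me3 in both HC libraries. So did the starts of the cartilage markers Acan, Col2a1 and Sox9. Acan and Col2a1 also had H3K27me3 in all 3 PC libraries, and Acan, Col2a1 and Sox9 had H3K27ac in both HC libraries. Of 6 cartilage markers, 5 had H3K4me3 in both HC libraries and 6 in all PC libraries. Of 5 muscle markers, Cdh15, Myf5 and Myog had H3K27ac in both HC libraries and no marker had it in all 3 PC libraries. H3K4me3 was at Cdh15, Myf6 and Myod1 in both HC libraries and at Myod1 in all PC libraries. H3K27me3 was at Myf5 and Myod1 in both HC libraries and at Myf5, Myf6 and Myod1 in all 3 PC libraries. Of 3 epidermis markers, Trp63 had H3K27ac in both HC libraries and no marker in all 3 PC libraries. None had H3K4me3 in both HC or in all PC libraries. Endothelium, blood, neural cells and osteoblasts had 3 markers each. In each of these lists only 1 marker had H3K27ac in both HC and all PC libraries. These were Kdr, Spi1, Sox2 and Sp7 in that order. Cdh5, Pecam1, Ptprc, Hbb-bt, Neurod1, Tubb3, Bglap and Ibsp had H3K27ac neither in both HC nor in all PC libraries. The part of such cells in the results below was not tested.

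The promoters within 2 kb of the lost regions ranged from dense to sparse in CG. The 250 bases before the start of 6 genes are shown because a lost region lay within 2 kb of each and because they span that range. They are from RefSeq on GRCm38.p6, the assembly also called mm10, written 5′ to 3′ on the strand of the gene, with each CG in capitals. Nr4a1, which encodes an orphan nuclear receptor, is at chr15:101266596-101266845 on the plus strand and has 34 CG in the stretch. Slc22a4, for a carnitine and ergothioneine transporter, is at chr11:54028105-54028354 on the minus strand, with 26. Papss2, for the enzyme that makes the sulphate donor of cartilage proteoglycans, is at chr19:32595465-32595714 on the plus strand, with 24. That stretch lies between the 2 lost regions of Papss2 and overlaps neither. Abca4, for a lipid transporter of the retina, is at chr3:122044210-122044459 on the plus strand, with 12. Capn1, for the protease calpain 1, is at chr19:6015826-6016075 on the minus strand, with 11. Chn2, for a Rac GTPase-activating protein, is at chr6:54272572-54272821 on the plus strand, with 4.
Nr4a1: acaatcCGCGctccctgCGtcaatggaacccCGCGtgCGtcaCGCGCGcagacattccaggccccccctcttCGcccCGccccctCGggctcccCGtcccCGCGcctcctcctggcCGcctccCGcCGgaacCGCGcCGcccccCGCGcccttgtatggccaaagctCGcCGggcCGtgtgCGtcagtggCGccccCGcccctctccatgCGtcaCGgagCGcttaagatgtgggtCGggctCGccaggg
Slc22a4: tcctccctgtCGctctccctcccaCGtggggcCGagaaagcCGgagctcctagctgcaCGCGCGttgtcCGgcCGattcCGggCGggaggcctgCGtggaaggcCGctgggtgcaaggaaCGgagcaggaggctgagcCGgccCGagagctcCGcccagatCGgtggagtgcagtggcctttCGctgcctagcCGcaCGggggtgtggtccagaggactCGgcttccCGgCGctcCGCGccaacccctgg
Papss2: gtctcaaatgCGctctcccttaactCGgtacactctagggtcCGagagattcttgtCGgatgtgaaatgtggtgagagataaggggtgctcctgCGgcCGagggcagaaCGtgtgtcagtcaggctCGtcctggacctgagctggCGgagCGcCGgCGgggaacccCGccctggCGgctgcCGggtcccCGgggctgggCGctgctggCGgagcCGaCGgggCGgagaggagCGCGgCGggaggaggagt
Abca4: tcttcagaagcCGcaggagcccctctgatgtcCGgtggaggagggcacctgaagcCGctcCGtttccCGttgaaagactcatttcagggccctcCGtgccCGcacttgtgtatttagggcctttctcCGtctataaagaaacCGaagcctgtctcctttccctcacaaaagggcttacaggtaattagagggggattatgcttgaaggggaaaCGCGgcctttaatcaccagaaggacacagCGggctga
Capn1: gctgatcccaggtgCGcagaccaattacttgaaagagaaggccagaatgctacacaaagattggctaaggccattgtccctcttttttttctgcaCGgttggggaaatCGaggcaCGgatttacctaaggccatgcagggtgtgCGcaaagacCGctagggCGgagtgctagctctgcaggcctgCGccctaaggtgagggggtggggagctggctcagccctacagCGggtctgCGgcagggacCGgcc
Chn2: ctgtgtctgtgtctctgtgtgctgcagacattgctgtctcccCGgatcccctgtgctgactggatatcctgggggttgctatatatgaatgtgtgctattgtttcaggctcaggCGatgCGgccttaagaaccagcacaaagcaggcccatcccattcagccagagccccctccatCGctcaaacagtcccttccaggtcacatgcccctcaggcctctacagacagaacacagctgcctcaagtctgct

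A start with known strand and sequence was found for 84 of the 114 genes with a lost region within 2 kb of the start. Over 250 bases before and 50 after the start, these genes had a median of 21 CG. The median was 19 at the 2225 genes with a kept region, meaning a region of the PC list that overlapped both HC libraries, and 14 at all 16456 autosomal genes. At least 10 CG stood in 83.3% of the starts at lost regions, in 78.4% at kept regions and in 57.6% of all. The ratio of observed to expected CG had medians of 0.714, 0.679 and 0.586 in the same order. The letters TATAAA, searched on both strands, stood in 4.76% of the starts at lost regions, in 8.72% at kept regions and in 2222 of all 16456. CCAAT on either strand stood in 26.2% at lost regions, 32.3% at kept regions and 38.9% of all, and CANNTG, the E-box of helix-loop-helix factors, in 79.8%, 67.3% and 68.7%. These matches describe the windows and say nothing of a factor. No hairpin of a RefSeq miRNA lay in a lost region.

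Lost regions were narrow and mostly lay between genes. Their median width was 1600 bp, with a range of 800 to 17600 bp, against a median of 4800 bp and a maximum of 144800 bp in the 4614 kept regions. A single grid step of 800 bp made up 295 of the lost regions, or 47.0%, against 6.29% of the kept ones. Only 33 lost regions were 5 kb or wider, against 1970 kept regions. Of the lost regions, 342 (54.5%) lay between genes, 179 (28.5%) elsewhere in a gene body and 107 (17.0%) within 2 kb of a gene start, against 22.2%, 17.1% and 60.7% of kept regions. Among regions of 1600 bp or less, a width set after seeing the data, 18.4% of 474 lost and 36.6% of 737 kept regions lay at a gene start. Width was read from the same PC libraries that entered the rule, and these shares carry no test.

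**Figure D1:**
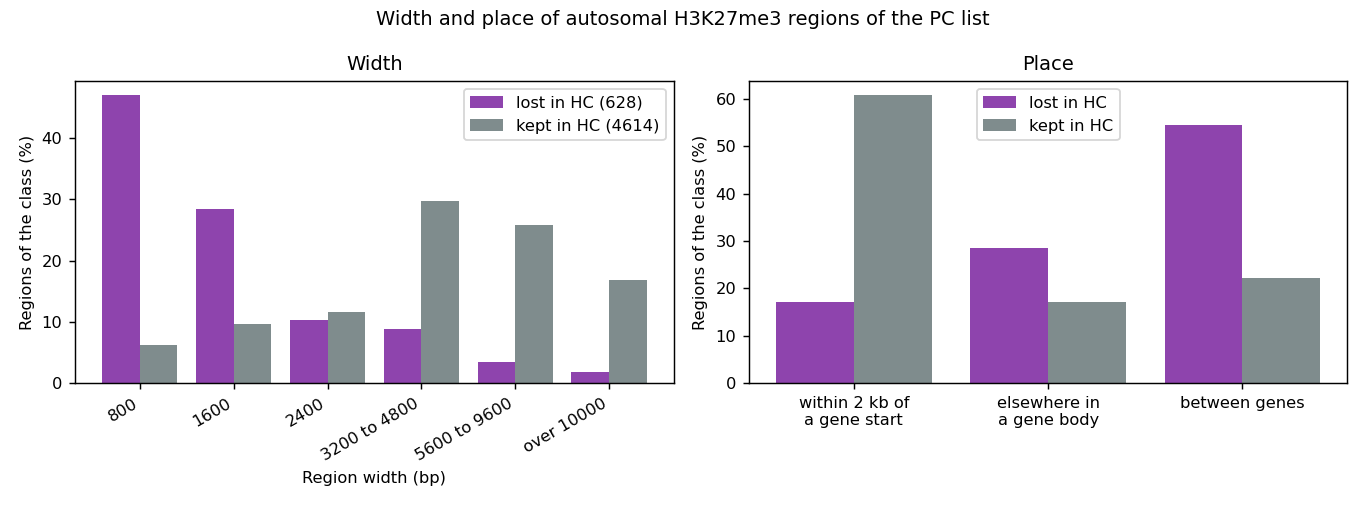
Percent of the 628 lost and 4614 kept autosomal H3K27me3 regions of the PC list (vertical axes) by width in bp (left) and by place relative to genes (right), with purple bars for lost and grey bars for kept regions. Regions of 800 bp are 47.0% of the lost and 6.29% of the kept regions, and gene starts hold 17.0% of the lost and 60.7% of the kept regions.

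Some lost regions stood at the edge of the rule. Of the 628, 62 touched a region of an HC library end to end, 90 lay within 800 bp of one and 136 were over 100 kb away, and the median distance was 18400 bp. Another 609 autosomal regions (10.4%) overlapped 1 HC library only. Of those just outside the rule, 308 had no more than 800 bp in that library and 416 were covered whole by it, with a lowest cover of 7.69%. In the PC libraries themselves 565 lost regions were covered whole in all 3, and 5 had 0 bp in 1 or more library although the authors' intersected list holds them. The count of lost regions was 865 without HC replicate 2 and 1000 without HC replicate 3. When PC replicate 2, 6 or 8 was left out and the other two were intersected anew, it was 1411, 1898 or 1928 in that order. The lost share of a chromosome's regions went from 5.68% on chromosome 19 (10 of 176) to 20.1% on chromosome 3 (58 of 288). Most lost regions stood alone: with gaps of up to 50 kb joined, 542 were single, and 86 fell into 38 groups.

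The widest losses lay far from genes or inside long genes. Both widest regions, at chr8:89589601-89607200 and chr2:115385601-115403200, spanned 17600 bp. The first lies 545438 bp from Sall1, a zinc finger gene of limb and kidney development. It had 0 and 0% H3K27me3 in HC libraries, against 95.5, 90.9 and 100% in PC libraries. H3K36me3 covered 0 and 0% of it in HC libraries, against 36.4, 27.3 and 59.1% in PC libraries, and H3K9me3 27.3 and 18.2%, against 27.3, 4.55 and 22.7%. HC and PC libraries thus did not overlap for H3K36me3 and did for H3K9me3, and H3K4me3, H3K9ac and H3K27ac were at 0 in all 15 libraries. The second lies 177706 bp from BC052040. H3K27ac covered 0 and 21.6% of it in HC libraries, against 31.8, 12.5 and 30.7% in PC libraries, so these overlapped. H3K9me3 covered 0 and 0% of it in HC libraries, against 4.55, 36.4 and 22.7% in PC libraries, and H3K4me3 0 and 0%, against 2.27, 1.14 and 3.41%. HC was below PC without overlap for both marks, and limma called neither. Cacnb4, which encodes a beta subunit of voltage-gated calcium channels, held 5 lost regions with 28000 bp between chr2:52459201 and chr2:52513600. None of the 5 had H3K4me3, H3K9ac or H3K27ac in any library. The widest, of 11200 bp, had H3K9me3 of 0 and 0% in HC libraries, against 0, 21.4 and 28.6% in PC libraries. A region of 11200 bp at chr1:14629601-14640800 lies 112543 bp from Msc, for the helix-loop-helix factor musculin, and one at chr2:27629601-27640800 lies 35644 bp from Rxra, for a retinoid receptor. Both were at 0 for H3K4me3 and H3K9ac in all libraries.

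Lost regions lay at the start of few genes, in the lists of cell types and pathways as elsewhere. A lost region lay within 2 kb of the start of 114 of 20661 autosomal protein-coding genes (0.552%), and a kept region at 3081 (14.9%). Of 24 gene lists for cell types and pathways, 20 had no gene with a lost region at its start. Over all lists it was 4 of 540 genes (0.741%), near the share of all genes. Among genes with a PC region at the start it was 4 of 316 list genes (1.27%) and 114 of 3319 genes in all (3.43%), and neither difference was tested. All 37 of 39 Hox genes that had a PC region kept it, as did 29 of 29 Wnt genes, 31 of 31 neural genes, 29 of 29 limb and axial patterning genes and 11 of 11 hypertrophic genes. The 4 list genes with a lost region at the start were Papss2 of 30 cartilage genes, Myf6 of 20 muscle genes, Plagl1 of 23 imprinted genes and Kcnj2 of 36 ion channel genes. Elsewhere in the gene body, lost regions lay in Nkd1 and Spry2, inhibitors of Wnt and FGF signalling, in Adamts18, a metalloproteinase gene, in Cacna1d, a calcium channel gene, and in the imprinted gene Impact. Syne3 and Smok2b had no lost region at the start.

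Myf6 encodes a helix-loop-helix factor of skeletal muscle. Its lost region at chr10:107491201-107497600 spans the whole gene. H3K27me3 covered 0 and 0% of the region in HC libraries, against 87.5, 87.5 and 100% in PC libraries. HC still had H3K27me3 next to it: the nearest HC region lay 800 bp away, and HC replicate 2 was covered between 9600 and 4000 bp to the left of the region's centre. H3K4me3 covered 12.5 and 9.38% of the lost region in HC libraries, against 12.5, 15.6 and 0% in PC libraries. H3K27ac covered 0 and 9.38%, against 0, 0 and 15.6%, and H3K9ac 0 and 0%, against 6.25, 0 and 0%. These marks overlapped between the cell types, and H3K36me3 was at 0 in all libraries. The muscle markers Cdh15, Myf5 and Myog with H3K27ac in both HC libraries stand beside this result, and their part in it was not tested.

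Papss2 had 2 lost regions of 800 bp, 1 on each side of its start. H3K27me3 covered 0 and 0% of the start window in HC libraries, against 40, 60 and 77.1% in PC libraries. The region inside the gene, at chr19:32596001-32596800, was wholly covered by H3K4me3 and H3K27ac in all 10 libraries of these marks. The region before the start, at chr19:32594401-32595200, had H3K27ac of 50 and 0% in HC libraries, against 100, 50 and 100% in PC libraries, so the groups met at 50%. H3K36me3 covered 0 and 0% of it in HC libraries, against 100, 100 and 100% in PC libraries (limma adjusted p = 0.0569). Libraries of each cell type were equal there, so that p rests on the spread at other regions. Over the whole gene body H3K36me3 was at 71.6 and 70.5% in HC libraries, against 95.1, 67.1 and 83.9% in PC libraries (limma adjusted p = 0.831), and here the groups overlapped.

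Plagl1 encodes an imprinted zinc finger protein, and its lost region at chr10:13088801-13090400 ends 431 bp before the start. H3K27me3 covered 0 and 0% of the region in HC libraries, against 100, 100 and 100% in PC libraries. H3K9me3 fell to 50 and 50% in HC libraries, against 100, 100 and 100% in PC libraries (limma difference -50, SE 0.0565, adjusted p = 2.26e-12). That SE is small because the libraries of each cell type are equal, and 50% of 1600 bp is 1 grid step. H3K36me3 covered all of it in all 5 libraries. H3K27ac was at 62.5 and 75% in HC libraries, against 100, 100 and 87.5% in PC libraries, without overlap but not called by limma. Kcnj2, for an inward rectifier potassium channel, had a lost region of 800 bp at chr11:111067201-111068000. H3K4me3 covered 25 and 0% of it in HC libraries, against 75, 100 and 75% in PC libraries, without overlap and not called by limma, and H3K27ac was at 0 in all 5.

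The genes with the most lost sequence at their start ranged from those with active marks in every library to those with few or none. Cpne8, for a calcium-binding copine, had H3K4me3 over 91.7 and 91.7% of its lost region in HC libraries, against 100, 91.7 and 75% in PC libraries. Cebpd, for a leucine zipper factor, whose lost region touches an HC region, had 66.7 and 58.3%, against 66.7, 58.3 and 58.3%. Slc22a4 had 50 and 43.8%, against 62.5, 50 and 43.8%, and Capn1 had 37.5 and 31.2%, against 31.2, 31.2 and 18.8%. In all 4 genes the cell types overlapped for H3K4me3. For H3K27ac the lost region of Capn1 had 56.2 and 31.2% in HC libraries, against 25, 25 and 18.8% in PC libraries, with HC above PC and no call by limma. Pqlc3, for a membrane protein, had H3K4me3 over 58.3 and 58.3% of its lost region in HC libraries, against 58.3, 66.7 and 58.3% in PC libraries, and H3K27ac over 50 and 0%, against 33.3, 50 and 16.7%. Its H3K9ac was at 16.7 and 16.7% in HC libraries, against 25, 41.7 and 25% in PC libraries, without overlap and not called by limma. Abca4 had H3K27ac over 37.5 and 56.2%, against 43.8, 0 and 25%, again with overlap. Its H3K4me3 was at 18.8 and 0%, against 50, 25 and 0%, and its H3K9ac at 6.25 and 0%, against 0, 6.25 and 0%. Chn2 had a lost region of 14400 bp over a start inside its longer transcript, with H3K27ac at 1.39 and 26.4% in HC libraries, against 5.56, 8.33 and 2.78% in PC libraries. Usp44, for a ubiquitin protease, was at 0 in all HC libraries for H3K4me3, H3K9ac and H3K27ac and reached 8.33% in 1 PC library for H3K4me3. Pcdhb3, a clustered protocadherin gene on chromosome 18 that shares its lost region with Pcdhb2, had no active mark in any library, and H3K9me3 covered 100 and 83.3% of the region in HC libraries, against 100, 100 and 83.3% in PC libraries.

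Other starts with lost regions were chosen after their values were seen. Nr4a1 was covered whole by H3K4me3, H3K9ac and H3K27ac in all 15 libraries. Dtx3l and Parp9, a pair of interferon-induced genes that share a start, were covered whole by H3K4me3 in all 5 libraries. Cd274, for the immune checkpoint ligand PD-L1, had H3K27ac over 75 and 87.5% of its lost region in HC libraries, against 75, 50 and 50% in PC libraries, so the groups met at 75%. Its H3K9ac was at 75 and 75%, against 62.5, 62.5 and 50%. Bst2, for the antiviral protein tetherin, had H3K27ac over 87.5 and 87.5%, against 50, 75 and 50%. Map3k8, for a kinase of inflammatory signalling, had H3K9ac over 100 and 75%, against 12.5, 25 and 37.5%, and H3K27ac over 100 and 100%, against 62.5, 25 and 50%. For Cd274 in H3K9ac, for Bst2 in H3K27ac and for Map3k8 in both marks the HC libraries were above the PC libraries, and limma called none of them. Other marks of these regions overlapped. H3K4me3 was at 75 and 100%, against 75, 75 and 87.5%, for Cd274. It was at 50 and 37.5%, against 37.5, 62.5 and 37.5%, for Bst2, and at 50 and 12.5%, against 62.5, 25 and 12.5%, for Map3k8. H3K9ac at Bst2 was at 100 and 37.5%, against 75, 0 and 37.5%. How often HC lay above PC over all lost regions was not counted.

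**Figure D2:**
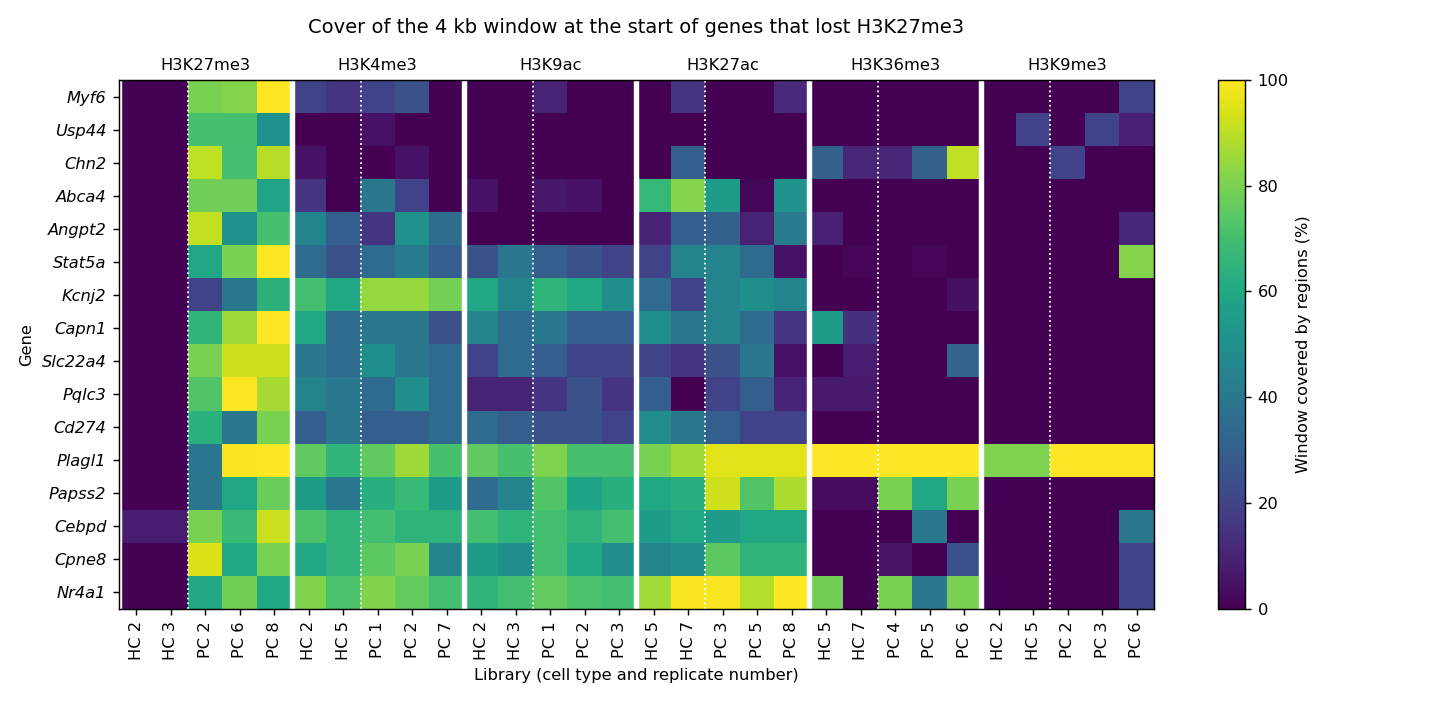
Percent of the 4 kb window around the start of 16 genes with lost H3K27me3 regions (rows) that lay in regions of each of 30 libraries (columns, HC left of PC within each mark), as colour. H3K27me3 is at 0 in both HC libraries except at Cebpd (7.87% each), and the H3K4me3, H3K9ac and H3K27ac columns are of like colour in HC and PC for most genes.

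HC and PC libraries overlapped in how many lost regions carried an active mark. H3K4me3 lay on 17.0 and 14.8% of the 628 regions in HC libraries, against 17.5, 20.1 and 14.5% in PC libraries (difference in means -1.43 percentage points, exact permutation p = 0.5, two-sided). H3K9ac lay on 14.2 and 12.6%, against 15.6, 13.4 and 11.6% (difference -0.159, exact permutation p = 1), and H3K27ac on 15.1 and 17.8%, against 18.6, 16.2 and 20.5% (difference -1.99, exact permutation p = 0.4). With 2 against 3 libraries the exact test cannot give a p under 0.1, so these values do not show that the cell types are alike. At equal covered length, with each library trimmed to its widest regions, the sign turned for all 3, to 1.41 for H3K4me3, 2.60 for H3K9ac and 3.64 for H3K27ac. Of the lost regions, 486 (77.4%) had none of the 3 marks in any HC library and 436 (69.4%) none in any PC library. Among kept regions these shares were 23.4% and 18.1%. Having 2 HC against 3 PC libraries per mark by itself raises the HC shares. Lost regions carried these marks less often than kept regions in every library: H3K4me3 lay on 72.5 and 67.7% of kept regions in HC libraries, against 74.1, 77.1 and 67.6% in PC libraries. The share of lost minus that of kept regions differed by 1.39 percentage points between HC and PC for H3K4me3 (exact permutation p = 0.5), by 2.68 for H3K9ac (0.4) and by 0.289 for H3K27ac (1). With regions of 1600 bp or less, H3K4me3 lay on 16.5 and 14.8% of lost and 41.2 and 36.4% of kept regions in HC libraries.

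The active marks of lost regions lay mostly at gene starts. There H3K4me3 lay on 71.0 and 62.6% of the 107 lost regions in HC libraries, against 69.2, 74.8 and 59.8% in PC libraries, and on 91.9 and 88.1% of kept ones, against 91.8, 94.0 and 87.1%. Between genes it lay on 4.39 and 3.22% of lost regions in HC libraries, against 5.56, 7.31 and 3.22% in PC libraries, and on 36.4 and 29.9% of kept ones, against 41.5, 45.9 and 31.1%. H3K9ac at gene starts lay on 59.8 and 56.1% of lost regions in HC libraries, against 63.6, 57.0 and 47.7% in PC libraries. At kept starts it lay on 62.1 and 61.9%, against 69.4, 67.7 and 54.9%. H3K27ac at lost starts was on 58.9 and 62.6%, against 61.7, 54.2 and 61.7%. On kept starts it was on 63.1 and 61.5%, against 69.2, 60.4 and 61.8%. Among start regions of 1600 bp or less, H3K27ac was in both HC libraries at 44 of 87 lost and 110 of 270 kept. It was in all PC libraries at 40 and 118 of them. H3K9ac was in both HC libraries at 46 and 123 and in all PC libraries at 36 and 109. For H3K4me3 these counts were 53 and 186 in HC and 51 and 178 in PC. At that width lost starts were not below kept ones for H3K27ac or H3K9ac, and were below for H3K4me3. The difference between lost and kept starts was not tested.

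Few lost regions carried an active mark in 1 cell type alone. H3K4me3 was in both HC and no PC library at 0 lost regions, where 0.0753% of all 6642 regions of the PC list were, and in all PC and no HC library at 4, where 0.467% of all were. For H3K9ac the counts were 1 and 0, with 0.708% and 1.13% over all regions. For H3K27ac they were 4 and 1, with 0.903% and 1.52%. The 1 region with H3K9ac in HC alone lay in Litaf, for an endosomal protein, at chr16:10974401-10975200, with 25 and 50% in HC libraries, against 0, 0 and 0% in PC libraries. H3K27ac at the same place was at 50 and 75%, against 0, 0 and 0%. The other regions with H3K27ac in HC alone lay in Prkch, a protein kinase C gene (12.5 and 50% in HC libraries), in Dnaaf3, a gene of ciliary dynein assembly (37.5 and 37.5%), and 84338 bp from Cradd (5 and 20%), each with 0% in all 3 PC libraries. Regions with H3K4me3 in PC alone included a place in Msi1, for a neural RNA-binding protein, with 0 and 0% in HC libraries, against 37.5, 25 and 25% in PC libraries, and a place 26048 bp from Trim2 with 0 and 0%, against 50, 100 and 50%. Limma (a moderated linear model over the percent covered) called 0 lost regions in either direction for these 3 marks. It tested 116 lost regions for H3K4me3, 92 for H3K9ac and 129 for H3K27ac, those covered in at least 2 libraries. It called 0.0514% of 3891 regions higher and 0% lower for H3K4me3, and 0% of regions in either direction for H3K9ac and H3K27ac. At an unadjusted p under 0.05, 5, 4 and 10 lost regions were higher and 6, 0 and 2 lower for the 3 marks in that order. Over all tested regions of the PC list, 45 were higher and 83 lower of 3891 for H3K4me3. For H3K9ac 139 were higher and 129 lower of 2896, and for H3K27ac 163 and 143 of 3109. Without PC replicate 7 limma called 3 lost regions higher and 4 lower for H3K4me3, and without PC replicate 3 it called 1 lower for H3K9ac. Over all regions tested it called 25 higher and 115 lower in the first of these fits, and 20 higher and 54 lower in the second.

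Of the lost regions, 88 had H3K4me3 in all 3 PC libraries, so that PC had calls of both marks in these regions. Calls from separate libraries do not show both marks in the same cells. H3K4me3 was also in both HC libraries at 82 of the 88 (93.2%), close to the 3290 of 3417 (96.3%) among all regions with H3K4me3 in all 3 PC libraries. H3K27ac was in all 3 PC libraries at 65 of the 88. At 3 of the 88 no PC library had H3K27ac, against 480 of 3066 such kept regions, and none of the 3 had H3K27ac in both HC libraries.

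**Figure D3:**
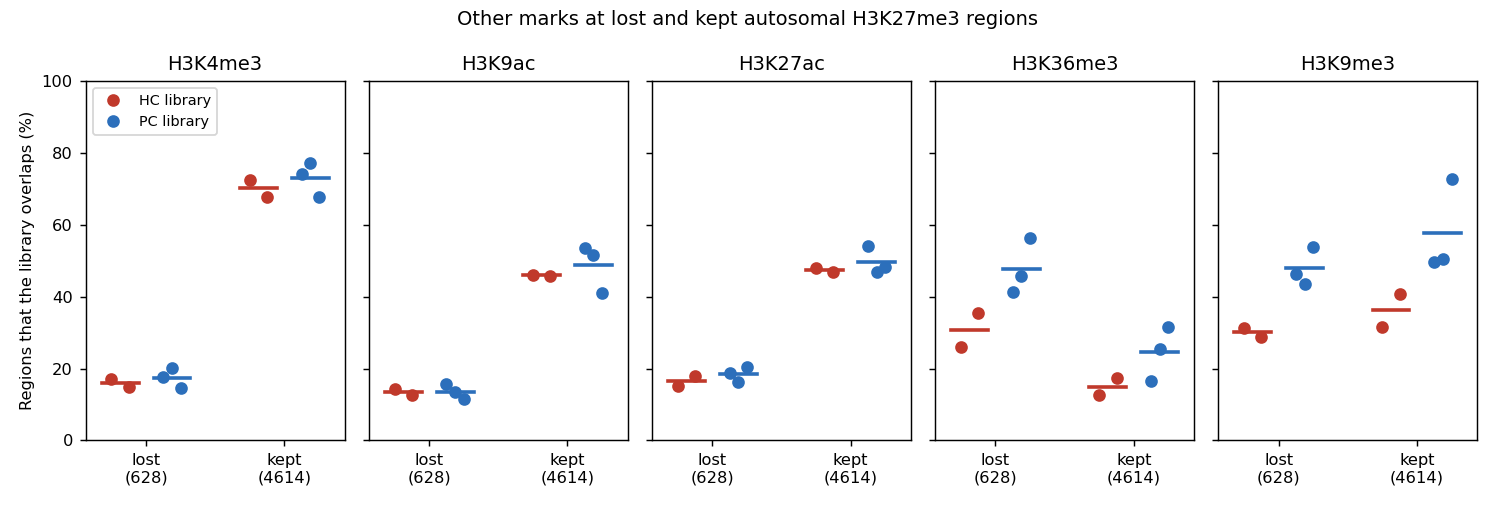
Percent of the 628 lost and 4614 kept regions (horizontal axis) that each library overlapped by at least 1 bp (vertical axis), in 1 panel per mark, with HC libraries in red left of PC libraries in blue and bars at the means. HC and PC overlap at lost regions for H3K4me3, H3K9ac and H3K27ac, and HC lies below PC for H3K36me3 (26.0 and 35.5%, against 41.2, 45.7 and 56.2%) and H3K9me3 (31.4 and 28.8%, against 46.2, 43.6 and 53.8%).

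H3K36me3 and H3K9me3 lay on fewer lost regions in each HC library than in any PC library. H3K36me3 was on 26.0 and 35.5% of them in HC libraries, against 41.2, 45.7 and 56.2% in PC libraries (means 30.7 ± 6.76 and 47.7 ± 7.69, SD, n = 2 and 3; difference -17.0 percentage points, exact permutation p = 0.1, adjusted over 5 marks 0.25). H3K9me3 was on 31.4 and 28.8%, against 46.2, 43.6 and 53.8% (means 30.1 ± 1.80 and 47.9 ± 5.30, SD, n = 2 and 3; difference -17.8, exact permutation p = 0.1, adjusted 0.25). The libraries did not overlap for either mark, and neither passed a threshold of 0.05, which the exact test cannot reach with this number of libraries. The total called was also lower in each HC than in any PC library for H3K36me3, and overlapped for H3K9me3. H3K36me3 regions covered 367.6 and 461.2 Mb of the autosomes in HC libraries, against 467.6, 467.8 and 595.9 Mb in PC libraries. H3K9me3 regions covered 202.6 and 123.3 Mb, against 212.5, 176.6 and 218.3 Mb. At equal covered length the differences were -5.25 for H3K36me3 (exact permutation p = 0.4) and -7.06 for H3K9me3 (0.3).

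Kept regions, too, carried H3K9me3 less often in each HC library (31.5 and 40.9%) than in any PC library (49.6, 50.4 and 72.9%). For H3K36me3, lost regions exceeded kept regions by a mean of 15.7 percentage points in HC libraries and 23.2 in PC libraries (difference -7.48, exact permutation p = 0.2, adjusted 0.833). For H3K9me3, the share of lost minus that of kept regions averaged -6.10 points in HC libraries and -9.73 in PC libraries (difference 3.63, exact permutation p = 0.7, adjusted 0.875). That sign turned to -6.91 among regions of 1600 bp or less, so a difference in H3K9me3 beyond that of kept regions was not shown. By place, H3K36me3 was on 41.3 and 52.5% of the 179 lost regions in gene bodies in HC libraries, against 55.9, 59.8 and 73.2% in PC libraries. Between genes it was on 21.6 and 33.0%, against 40.9, 44.7 and 54.7%, and kept regions there had 8.79 and 14.7%, against 15.4, 23.7 and 29.4%. H3K9me3 was on 8.41 and 8.41% of lost regions at gene starts in HC libraries, against 12.1, 11.2 and 37.4% in PC libraries, and kept starts had 30.8 and 43.5%, against 51.7, 52.9 and 77.7%. At starts of all widths, a smaller share of lost than of kept regions thus carried H3K9me3 in each of the 5 libraries. At starts with regions of 1600 bp or less, H3K9me3 was in both HC libraries at 4 of 87 lost and 9 of 270 kept regions. It was in all 3 PC libraries at 5 and 10 of them. By this measure lost starts of that width were not below kept ones. Between genes the order differed among libraries, with 36.8 and 33.6% of lost regions in HC libraries, against 55.6, 52.6 and 58.5% in PC libraries, and 35.5 and 37.3% of kept ones, against 46.9, 45.7 and 63.9%. Among regions of 1600 bp or less, lost exceeded kept regions in all 5 libraries, with 33.1 and 29.7% of lost regions in HC libraries, against 45.8, 43.9 and 51.5% in PC libraries, and 21.4 and 22.4% of kept ones, against 24.8, 25.9 and 41.1%.

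H3K36me3 and H3K9me3 lay together on a larger share of lost than of kept regions, a difference that was not tested. Both marks were in both HC libraries at 82 lost regions (13.1%) and 266 kept regions (5.77%), and in all PC libraries at 122 lost (19.4%) and 375 kept regions (8.13%). H3K36me3 was in all PC and no HC library at 39 lost regions and in both HC and no PC library at 1, where 2.44% and 0.301% of all regions were. H3K9me3 was so at 25 and 0, where 5.09% and 0.196% of all regions were. Only 2 lost regions (0.318%) had both marks in all PC and no HC library, against 11 kept regions (0.238%). None of the 5 other marks was in any of the 2 HC libraries per mark at 210 lost (33.4%) and 546 kept regions (11.8%). None was in any of the 3 PC libraries per mark at 57 lost (9.08%) and 212 kept regions (4.59%), and having fewer HC libraries by itself raises the HC counts.

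Of the 628 lost regions, 303 had H3K9me3 in at least 2 libraries and were tested with limma. It called 14 of them lower in HC and 0 higher, where 1.21% of 3642 regions were called lower. At an unadjusted p under 0.05, 22 were lower and 0 higher, where 202 were lower and 42 higher over all 3642 regions. Besides the region at Plagl1, the 13 other called lost regions had 0 and 0% in HC libraries, against 100, 100 and 100% in PC libraries (difference -100, SE 12.6, adjusted p = 0.0316). They entered the test through PC libraries alone. Libraries of each cell type were equal, so the shared SE and p rest on the spread at other regions. The limma adjusted p of the same values was 0.00029 with no filter and 0.385 on the log2 scale. Of the 13 regions, 3 lay in the bodies of Cacna1d, of Nkd1 and of Adamtsl1, an ADAMTS-like matrix protein gene. Others were nearest to Ptpn20, Foxd3, a neural crest factor gene at 116298 bp, and Hand2, a limb and heart factor gene at 40283 bp. All 14 were 1600 bp or narrower. Among regions of that width limma called 6.14% of 228 lost and 5.56% of 216 kept regions lower, and among wider ones 0% of 75 lost and 0.269% of 2607 kept regions. The share called thus differed little between lost and kept regions of like width. For H3K36me3 limma called 1 of 304 lost regions lower and 0 higher, where 0.0541% of 1849 regions were called lower. At an unadjusted p under 0.05, 37 lost regions were lower and 1 higher, where 121 were lower and 25 higher over all 1849 regions. The called region lay in Ror1, for a Wnt receptor, at chr4:100316801-100320000, with 75 and 75% in HC libraries, against 100, 100 and 100% in PC libraries. Another 23 lost regions, with a limma adjusted p of 0.0569, also entered the test through PC libraries alone, and that p has the same limit. They had 0% in both HC libraries, against 100% in all 3 PC libraries. Of tested regions of 1600 bp or less, 20 of 224 lost (8.93%) and 7 of 148 kept regions (4.73%) had these values. Of wider ones, 3 of 80 lost (3.75%) and 3 of 991 kept regions (0.303%) had them. On simulated tables of these values limma called more unchanged regions than its threshold allows, so single calls for H3K36me3 and H3K9me3 are to be read beside the values. With limma's robust setting off, an alternative added after seeing the data, 27 lost regions were lower for H3K36me3 and 14 for H3K9me3. Over all regions 68 and 45 were lower in that setting. At equal covered length 0 and 1 lost regions were lower, of 0 and 5 in all. For H3K9me3, leaving out PC replicates 2, 3 and 6 gave 28, 44 and 27 lost regions, of 249, 256 and 151 called lower in all. The H3K36me3 count was 46, 37 and 36 without PC replicates 4, 5 and 6, of 204, 121 and 108 in all.

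Transcribed bodies of the 114 genes with a lost start showed no called change. Limma tested H3K36me3 over 93 of these bodies and called 0, as it called 0% of 13684 genes in either direction. At an unadjusted p under 0.05, 7 were higher and 1 lower in HC, and over all genes 381 were higher and 481 lower. Of these, chosen after their values were seen, Reep6 had the lowest p. Reep6, for an endoplasmic reticulum protein, had 24.8 and 24.8% in HC libraries, against 0, 0 and 0% in PC libraries (limma adjusted p = 0.157). It entered the test through HC libraries alone, and its libraries were equal within each cell type. Pld2, for phospholipase D2, had 80.1 and 81.6%, against 45.7, 25.8 and 32.8%, and Capn1 had 91.8 and 88.9%, against 76.2, 29.3 and 23.5%. Map3k8 had 40.1 and 77.1%, against 14.2, 0 and 18.5%. In these 4 genes every HC library was above every PC library, and none passed the adjustment. Cpne8 was the gene lower in HC, with 14.2 and 30.4%, against 47.5, 50.9 and 49.0%.

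**Figure D4:**
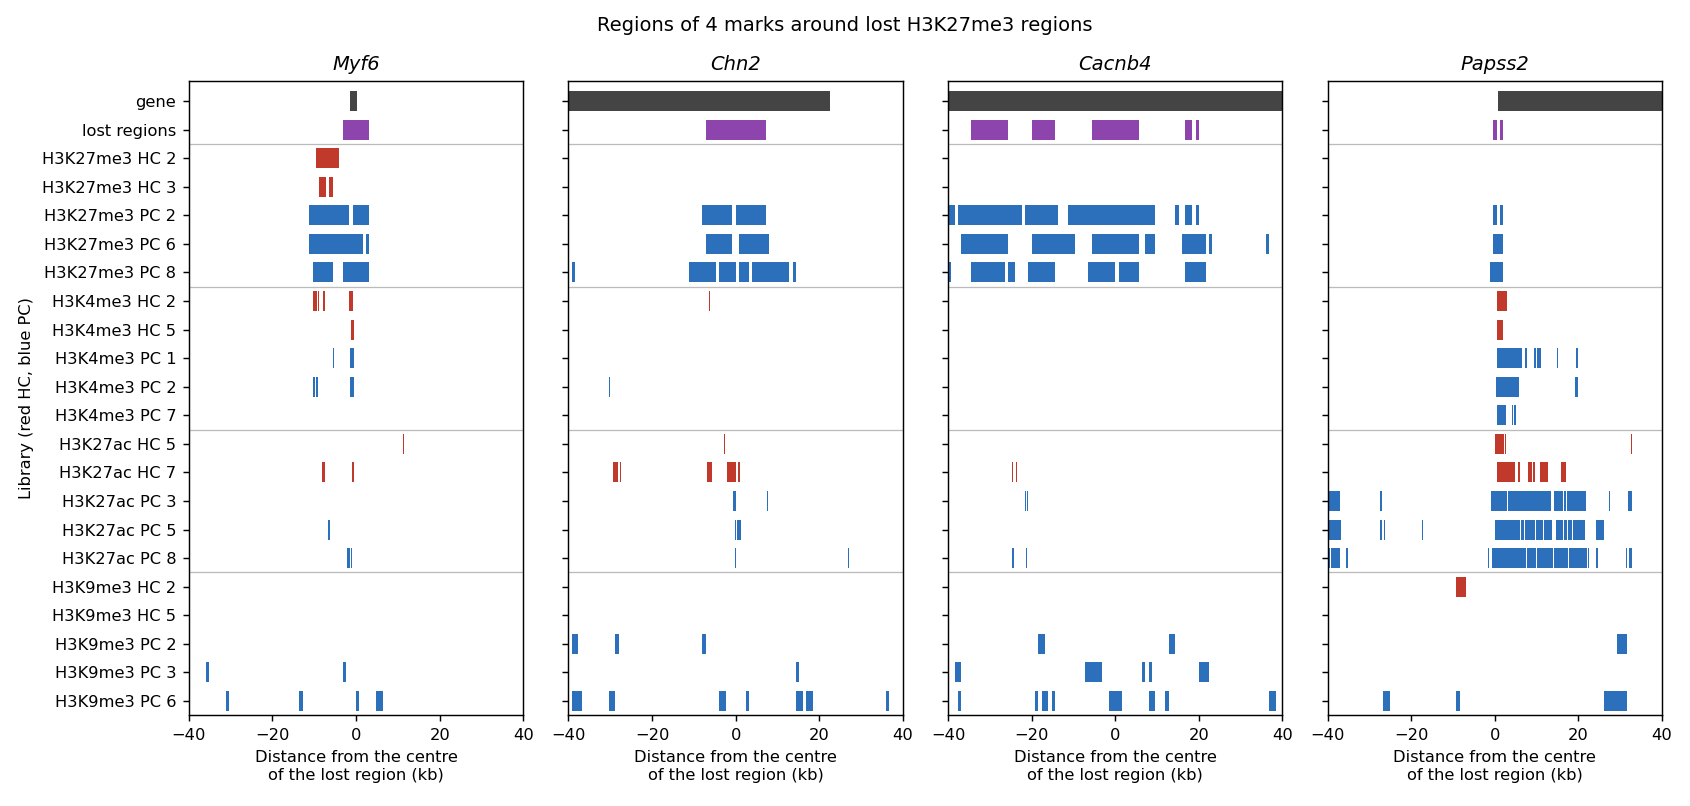
Regions called in each HC (red) and PC (blue) library for 4 marks (rows) along 80 kb around a lost region at Myf6, Chn2, Cacnb4 and Papss2, with the gene in black, lost regions in purple and distance from the centre of the lost region in kb on the horizontal axis. H3K27me3 of HC appears only to the left of the lost region at Myf6, and H3K4me3 and H3K27ac lie over the start of Papss2 in every library.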

How the data were processed

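Chromatin immunoprecipitation with sequencing was given as coordinates only. The deposited files hold start and end positions in base pairs, with a list for every library and an intersected list for each mark in HC and in PC. Tools named in the submitters' processing notes are FastQC and Picard, with build mm10. Which aligner and region caller the authors ran is not given in the sources used. The members and gene lists were chosen with earlier results of these data known.

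Regions of the authors' intersected PC H3K27me3 list were classed by overlap with both HC libraries. A region carried a mark from 1 bp of overlap. Genes were the protein-coding entries of RefSeq GRCm38.p6. A start has 2 kb on each side of the RefSeq start, and both gene ends served for 4392 of 21883 genes without a strand, which include Myf6 and all genes of chromosome 18. Shares were compared by a two-sided exact permutation test over libraries, with Benjamini-Hochberg adjustment over 5 marks. Percent covered was fitted with limma 3.58.1 in R 4.3.3 (trend, robust), keeping regions or genes that 2 or more libraries covered and adjusting by Benjamini-Hochberg at 0.05 over all tested. Intervals, distances and figures used Python 3.11.15, pandas 2.3.3 and matplotlib 3.10.9. Functions were tested on simulated data. HC and PC share a replicate number for every mark, and both 2 and 3 for H3K9ac only. These numbers do not pair samples, which come from other strains and ages. Named genes were list genes with a lost region at the start, those with the most lost sequence there, genes at the widest regions and at limma calls, genes with an active mark in 1 cell type only, and Myf6, Syne3, Pqlc3, Abca4, Smok2b and Papss2. Genes named outside this rule are marked as chosen after their values were seen. Alternatives were other overlaps and distances, equal covered length, no filter, the log2 scale, each library left out and a replicate block.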

Additional observations from a re-analysis of the deposited data

How the results depend on the processing

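The number of lost regions, 628, was 566 at 800 bp or more from any HC region, 629 with less than 10% overlap allowed and 805 with all 3 PC libraries intersected anew. It was 1091 at equal covered length, and with 1 H3K27me3 library left out it lay between 865 and 1928, where leaving out a PC library also makes the starting list longer. At equal covered length the HC minus PC share of lost regions carrying a mark turned to 1.41 for H3K4me3, 2.60 for H3K9ac and 3.64 for H3K27ac, and the lost minus kept difference to -6.78 for H3K9ac and -10.1 for H3K27ac. Among regions of 1600 bp or less, an alternative added after seeing the data, the share turned to 0.0703 for H3K9ac and lost minus kept to -6.91 for H3K9me3. With 1 library left out the H3K9ac share lay between -1.11 and 0.876, lost minus kept between -1.87 and 2.26 for H3K27ac and between -2.30 and 9.57 for H3K9me3.

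Limma counts of lost regions moved as follows. With no filter, H3K4me3 had 1 lower, H3K9ac 2 higher and H3K27ac 6 higher and 1 lower, H3K36me3 regions could not be fitted, and 1 gene body was higher. Over all 6642 regions of that fit, 2 were higher and 2 lower for H3K4me3, and 16 and 6 for H3K9ac. For H3K27ac 46 were higher and 44 lower, and of all 21883 gene bodies 13 were higher and 36 lower. On the log2 scale H3K36me3 had 37 lower and 1 higher, of 110 lower and 13 higher over all 1849 regions. H3K9me3 had 1 lower on that scale, of 10 lower over all 3642 regions. At equal covered length H3K36me3 had 0 and H3K9me3 1 lower. With robust off H3K4me3 had 1 lower, and H3K36me3 27 lower and 1 higher. Over all regions that setting gave 4 lower and 5 higher for H3K4me3, and 68 lower and 13 higher for H3K36me3. With 1 library left out, H3K4me3 had 0 to 3 higher and 0 to 4 lower, H3K9ac 0 to 1 lower, H3K36me3 0 to 4 higher and 26 to 59 lower, and H3K9me3 2 to 44 lower, the 2 being without HC replicate 5. H3K9ac with a replicate block gave 0 higher and 0 lower, as without, and no pairing is assumed. The cause of these shifts was not tested. Calls at single lost regions lost their significance in 35 of 129 repeats and reversed in 0. Without read counts, depth sets no floor here, and 2 HC libraries limit the precision of each share.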
